A study of Mus musculus with 5 samples.

Results

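These are CD8 T cells of mouse B16-F10 melanoma that carried messenger RNA of interferon gamma (Ifng) and of the chemokines Xcl1 and Ccl1, and 628 of the 37468 cell barcodes in the series met their definition. A barcode was a member when at most 10% of its unique molecular identifiers (UMIs, one per captured transcript) were mitochondrial and it had at least 1 UMI of Cd3e, Cd3d and Cd3g together and at least 2 of Cd8a and Cd8b1 together. It had to hold no UMI of Cd4 and none of Csf1r, C1qa and Cd79a. Further limits were fewer than 2 UMIs of Mki67 and Top2a together, fewer than 3 of Gzmc, Gzmd, Gzme and Gzmf together, fewer than 2 of Tcf7, Lef1 and S1pr1 together and fewer than 2 of Gzmk. The last step required at least 3 UMIs of Ifng, Xcl1 and Ccl1 together. The members were thus chosen on measured values of these genes, and their levels of the chosen genes are a description and not a finding. Secretion itself was not measured; the cells are called secreting cells here for the transcripts that select them. CD8 T cells that met every other limit but had at most 2 UMIs of the 3 cytokine genes are called cytokine-low cells.

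The series holds 5 libraries of live CD45+ cells sorted from B16-F10 tumors in mice, with 1 library for each treatment. The treatments were an anti-PD1-IL15 protein fusion (called fusion), an IL15 superagonist combined with anti-PD1 (combination), an IL15 superagonist alone, anti-PD1 alone, and PBS as the control. For the combination, the sample title names the IL15 superagonist and the treatment field names IL15 only. Every group received 500000 B16-F10 tumor cells under the skin, and tumors were removed on day 11; the treatment field places treatment after removal, and the sources used here do not give the schedule, the strain or age of the mice, or how many tumors went into a library. B16-F10 is a transplanted mouse melanoma line. About 16000 cells were loaded per library for 5′ single-cell RNA sequencing. The members numbered 212 in fusion, 182 in combination, 127 in IL15 superagonist, 76 in anti-PD1 and 31 in PBS, and the cytokine-low cells numbered 749 in fusion, 819 in combination, 428 in IL15 superagonist, 327 in anti-PD1 and 434 in PBS.

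Interferon gamma is the main effector cytokine of CD8 T lymphocytes and of natural killer (NK) cells; it induces antigen presentation and antiviral genes in cells that carry its receptor. Xcl1 attracts the dendritic cells that carry Xcr1, which present tumor antigen to CD8 T cells, and Ccl1 is the ligand of Ccr8, a receptor found on regulatory T cells in tumors. Activated CD8 T cells transcribe these genes within hours of antigen receptor signalling, through calcium-driven NFAT factors together with AP-1 and NF-kB, and lose the transcripts again when the signal stops. IL15 maintains CD8 T and NK cells through the Il2rb and Il2rg receptor chains, and anti-PD1 blocks an inhibitory receptor of antigen-experienced T cells.

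Depth differed between libraries and between the cell groups. Barcodes had a median of 4279 to 7851 UMIs per library. Secreting cells had medians of 6238 in fusion, 7441 in combination, 7254 in IL15 superagonist, 7007 in anti-PD1 and 5510 in PBS, against cytokine-low medians of 5074 in fusion, 4689 in combination, 4032 in IL15 superagonist, 4903 in anti-PD1 and 4689 in PBS, so that the members were the deeper cells in all 5 libraries. Summed over members, the libraries held 1400274 UMIs in fusion, 1485645 in combination, 979997 in IL15 superagonist, 575563 in anti-PD1 and 187461 in PBS, and levels are given in CPM, UMIs per 1000000 UMIs of the cell group. Taking 3 counts as the limit, a count of 0 allowed up to 2.14 CPM in fusion, 2.02 in combination, 3.06 in IL15 superagonist, 5.21 in anti-PD1 and 16.0 in PBS. The PBS library stood apart in its T-cell receptor transcripts: the ratio of UMIs of beta variable segments (Trbv) to UMIs of the beta constant genes (Trbc) in members was 5.30 in fusion, 2.02 in combination, 2.71 in IL15 superagonist, 1.60 in anti-PD1 and 0.241 in PBS. With 31 members and this difference, each comparison with PBS is a comparison with a thin library, and results across cell groups are also given without it. The libraries shared 774 barcode sequences, of which the members carried 10 in fusion, 7 in combination, 7 in IL15 superagonist, 6 in anti-PD1 and 0 in PBS; 1 pair of members, in IL15 superagonist and anti-PD1, had the same sequence.

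The label was checked against marker genes. All 8 CD8 T-cell markers on the list were detected in every library. Their summed level was 5276 to 6627 CPM in secreting cells, against 5673 to 7308 CPM in cytokine-low cells. Only 3 of these 8 markers are not selecting genes, and Cd8a is among those that are. Detection of the selecting genes largely follows from the gate and is no check of the label. The 3 other markers were not called against cytokine-low cells. The 8 NK-cell markers summed to 989 CPM in fusion, 1085 in combination, 979.6 in IL15 superagonist, 323 in anti-PD1 and 304 in PBS secreting cells. In cytokine-low cells they summed to 1151 CPM in fusion, 954 in combination, 1086 in IL15 superagonist, 465 in anti-PD1 and 304 in PBS. The NK-cell list was thus not uniformly higher in the members. Markers of macrophages and monocytes summed to 251 to 889.8 CPM in secreting cells, against 307 to 1124 CPM in cytokine-low cells. Markers of dendritic cells summed to 182 to 2113 CPM in secreting cells, against 338 to 2479 CPM in cytokine-low cells. That list holds Ccr7, which was itself higher in secreting cells (below), so its sum does not measure dendritic-cell transcripts alone. Ccr7 gave 51.4 of 182 CPM in fusion, 727 of 804 in combination and 389 of 491 in PBS secreting cells. Melanoma markers did not exceed 3.47 CPM in secreting cells, and no red-cell marker UMI was found in them. No doublet caller was run; only the gates on Cd4, Csf1r, C1qa and Cd79a remove mixed barcodes.

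The promoters of the 3 selecting genes and of Csf2 and Ccl3, which have the highest ratio and the smallest adjusted p among the genes named by rule in the comparison with cytokine-low cells, are shown because all 5 genes are known targets of antigen receptor signalling. Each sequence runs 5′ to 3′ from 250 bases before to 50 after the start of the RefSeq gene on GRCm38.p6. The GENCODE annotation of mm10, used for gene positions below, starts Csf2 232 bases downstream of the RefSeq start, so that the Csf2 window lies wholly upstream of the GENCODE gene, and it starts Ccl1 125878 bases upstream of the RefSeq start; for the other 3 genes the starts lie at most 23 bases apart. Capitals mark the letters GGAAA on either strand, written GGAAA or TTTCC, which are the core letters that NFAT factors recognise.
Ifng promoter, chr10:118440796-118441095, plus strand: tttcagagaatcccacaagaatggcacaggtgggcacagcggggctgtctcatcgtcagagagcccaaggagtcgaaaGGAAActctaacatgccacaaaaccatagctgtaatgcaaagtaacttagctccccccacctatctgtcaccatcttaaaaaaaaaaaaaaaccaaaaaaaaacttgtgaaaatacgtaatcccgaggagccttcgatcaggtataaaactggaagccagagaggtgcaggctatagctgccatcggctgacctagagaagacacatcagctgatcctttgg
Xcl1 promoter, chr1:164935473-164935772, minus strand: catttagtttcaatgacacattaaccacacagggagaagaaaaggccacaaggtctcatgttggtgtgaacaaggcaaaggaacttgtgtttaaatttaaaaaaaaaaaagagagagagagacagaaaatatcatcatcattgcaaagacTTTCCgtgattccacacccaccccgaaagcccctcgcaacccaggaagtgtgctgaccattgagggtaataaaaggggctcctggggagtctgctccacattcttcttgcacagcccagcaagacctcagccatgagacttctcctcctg
Ccl1 promoter, chr11:82179763-82180062, minus strand: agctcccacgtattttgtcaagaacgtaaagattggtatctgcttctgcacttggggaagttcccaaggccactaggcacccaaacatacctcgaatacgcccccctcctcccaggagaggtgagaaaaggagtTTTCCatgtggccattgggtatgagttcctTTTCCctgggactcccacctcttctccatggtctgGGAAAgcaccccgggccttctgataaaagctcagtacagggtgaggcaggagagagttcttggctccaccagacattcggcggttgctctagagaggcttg
Csf2 promoter, chr11:54249850-54250149, minus strand: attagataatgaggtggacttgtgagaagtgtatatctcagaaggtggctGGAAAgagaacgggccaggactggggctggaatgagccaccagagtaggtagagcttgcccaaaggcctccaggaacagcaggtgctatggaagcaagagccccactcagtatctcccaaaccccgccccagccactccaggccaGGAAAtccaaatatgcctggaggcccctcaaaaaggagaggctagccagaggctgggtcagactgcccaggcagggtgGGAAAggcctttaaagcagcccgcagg
Ccl3 promoter, chr11:83649329-83649628, minus strand: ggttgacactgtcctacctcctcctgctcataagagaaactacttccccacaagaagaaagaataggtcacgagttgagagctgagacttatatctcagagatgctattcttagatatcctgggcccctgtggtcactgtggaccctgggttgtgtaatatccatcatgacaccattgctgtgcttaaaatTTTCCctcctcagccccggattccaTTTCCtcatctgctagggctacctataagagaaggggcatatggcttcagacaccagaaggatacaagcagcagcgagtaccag
The core letters occur 1 time each in the windows of Ifng and Xcl1, 3 times each in those of Ccl1 and Csf2, and 2 times in that of Ccl3. The same letters occur in 61.3% of 32851 mouse promoter windows of this length, and in 13 of the 18 windows of the 17 matched genes among the 24 genes named by rule for the comparison with cytokine-low cells. The AP-1 letters TGANTCA, on either strand, occur in 7.81% of all windows, in 3 of those 18 windows and in none of the 5 printed here. These matches describe letters and are not evidence of binding.

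The 3 selecting genes were carried by different members in different proportions. An Xcl1 UMI was present in 90.6% of members in fusion, 75.8% in combination, 89.8% in IL15 superagonist, 69.7% in anti-PD1 and 54.8% in PBS. Ifng was detected in 39.6% of members in fusion, 54.4% in combination, 46.5% in IL15 superagonist, 67.1% in anti-PD1 and 67.7% in PBS, and Ccl1 in 10.4% of members in fusion, 32.4% in combination, 40.9% in IL15 superagonist, 34.2% in anti-PD1 and 16.1% in PBS. Xcl1 was thus the most widely carried of the 3 in 4 libraries, while in PBS more members carried Ifng. The largest class in the fusion library was members with Xcl1 alone, who made up 55.2% of members in fusion, 31.3% in combination, 36.2% in IL15 superagonist, 25% in anti-PD1 and 25.8% in PBS. Members with all 3 transcripts made up 3.77% of members in fusion, 12.6% in combination, 21.3% in IL15 superagonist, 17.1% in anti-PD1 and 6.45% in PBS. Members with Ifng alone made up 7.55% of members in fusion, 17.6% in combination, 6.30% in IL15 superagonist, 19.7% in anti-PD1 and 41.9% in PBS, and no library had more than 2 members with Ccl1 alone.

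Summed levels of the selecting genes were lowest in fusion members for Ifng, Xcl1 and Ccl1 alike. Ifng stood at 184 CPM in fusion, 784 in combination, 957 in IL15 superagonist, 1458 in anti-PD1 and 421 in PBS secreting cells. Xcl1 stood at 1356 CPM in fusion, 2790.0 in combination, 3281 in IL15 superagonist, 2962 in anti-PD1 and 1728 in PBS, and Ccl1 at 156 CPM in fusion, 637 in combination, 988 in IL15 superagonist, 806 in anti-PD1 and 267 in PBS. A few cells carried much of these sums: the richest member held 8.91% of the members' Ifng UMIs in fusion, 14.2% in combination, 42.5% in IL15 superagonist, 18.1% in anti-PD1 and 12.7% in PBS, and 42.3% of the Xcl1 UMIs of PBS members came from 1 cell. The threshold cut through a continuous range, with members at exactly 3 UMIs numbering 40 in fusion, 22 in combination, 11 in IL15 superagonist, 7 in anti-PD1 and 10 in PBS. Cytokine-low cells at exactly 2 UMIs numbered 61 in fusion, 56 in combination, 16 in IL15 superagonist, 20 in anti-PD1 and 22 in PBS. Members were 2.42% of all barcodes in fusion, 2.12% in combination, 1.87% in IL15 superagonist, 1.03% in anti-PD1 and 0.515% in PBS and held a larger share of each library's cytokine transcripts. They held 4.01% of Ifng UMIs in fusion, 30.9% in combination, 33.8% in IL15 superagonist, 31.4% in anti-PD1 and 9.22% in PBS. They held 7.99% of Xcl1 UMIs in fusion, 33.4% in combination, 27.9% in IL15 superagonist, 23.5% in anti-PD1 and 12.7% in PBS, and 7.12% of Ccl1 UMIs in fusion, 44.0% in combination, 26.2% in IL15 superagonist, 39.7% in anti-PD1 and 14.7% in PBS. Cycling CD8 T cells outnumbered members in each library, with 3234 in fusion, 350 in combination, 174 in IL15 superagonist, 289 in anti-PD1 and 236 in PBS. Granzyme C-F-high CD8 T cells outnumbered members in fusion only. Cycling CD8 T cells held 57.7% of Ifng UMIs in fusion, 26.0% in combination, 17.3% in IL15 superagonist, 21.8% in anti-PD1 and 46.1% in PBS.

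Free RNA gives UMIs to cells that do not express a gene, and macrophages and monocytes served as the background for the selecting threshold. In fusion, 0 of 390 of them had 3 or more UMIs of the 3 genes, which allows a share of up to 0.769%. The other libraries had 0.231% of macrophages and monocytes in combination, 0.473% in IL15 superagonist, 0.419% in anti-PD1 and 0.282% in PBS, at median depths of 6560 UMIs in fusion, 7469 in combination, 7814 in IL15 superagonist, 7017 in anti-PD1 and 5615 in PBS. NK cells passed the same threshold in 37.0% of NK cells in fusion, 27.2% in combination, 25.2% in IL15 superagonist, 34.4% in anti-PD1 and 29.2% in PBS, and cycling CD8 T cells in 34.6% of cycling CD8 T cells in fusion, 33.1% in combination, 52.9% in IL15 superagonist, 27.0% in anti-PD1 and 16.5% in PBS. The 3 genes therefore did not mark members alone, and the members are the non-cycling, Gzmk-low, granzyme C-F-low CD8 T cells among the cells that carry them.

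Among CD8 T cells that met the other limits, secreting cells made up 22.1% in fusion (exact Clopper-Pearson 95% interval 19.5 to 24.8), 18.2% in combination (15.8 to 20.7), 22.9% in IL15 superagonist (19.5 to 26.6), 18.9% in anti-PD1 (15.2 to 23.0) and 6.67% in PBS (4.57 to 9.33). The intervals of the 4 treated libraries overlap each other, and the PBS interval lies below them. These intervals and all others cover counting error only, and with 1 library per treatment the difference has no replicate check. Because the threshold counts raw UMIs, the shares were also taken after thinning each cell to 2000 UMIs and applying every gate again, where they were 9.49% of the CD8 T cells that passed in fusion, 6.66% in combination, 11.1% in IL15 superagonist, 10.1% in anti-PD1 and 3.12% in PBS. The cells that passed the gates after thinning numbered 2140 in fusion, 1682 in combination, 912 in IL15 superagonist, 646 in anti-PD1 and 513 in PBS, against 961 in fusion, 1001 in combination, 555 in IL15 superagonist, 403 in anti-PD1 and 465 in PBS before it, since thinned cells fall under the upper limits on cycling, granzyme, Tcf7 group and Gzmk UMIs more easily, so the denominators before and after hold different cells. Thinning left out 22 cells in IL15 superagonist, 444 in PBS and 0 in the other libraries for being shallower. As a share of all barcodes under the mitochondrial limit, members made up 2.45% in fusion, 2.14% in combination, 1.90% in IL15 superagonist, 1.04% in anti-PD1 and 0.521% in PBS. As a share of all CD8 T cells, before the limits on cycling, granzyme C-F, Tcf7 group and Gzmk UMIs, members made up 3.35% of all CD8 T cells in fusion, 5.96% in combination, 7.04% in IL15 superagonist, 7.03% in anti-PD1 and 3.41% in PBS. On that denominator fusion (95% interval 2.92 to 3.83) was the lowest, and its interval overlapped that of PBS (2.33 to 4.81); after thinning the same shares were 4.00% of all CD8 T cells in fusion, 4.18% in combination, 6.48% in IL15 superagonist, 6.99% in anti-PD1 and 2.34% in PBS. The order of the libraries thus differed between denominators: PBS had the lowest share of CD8 T cells that met the other limits and of barcodes, but the lowest share of all CD8 T cells only after thinning.

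**Figure D1:**
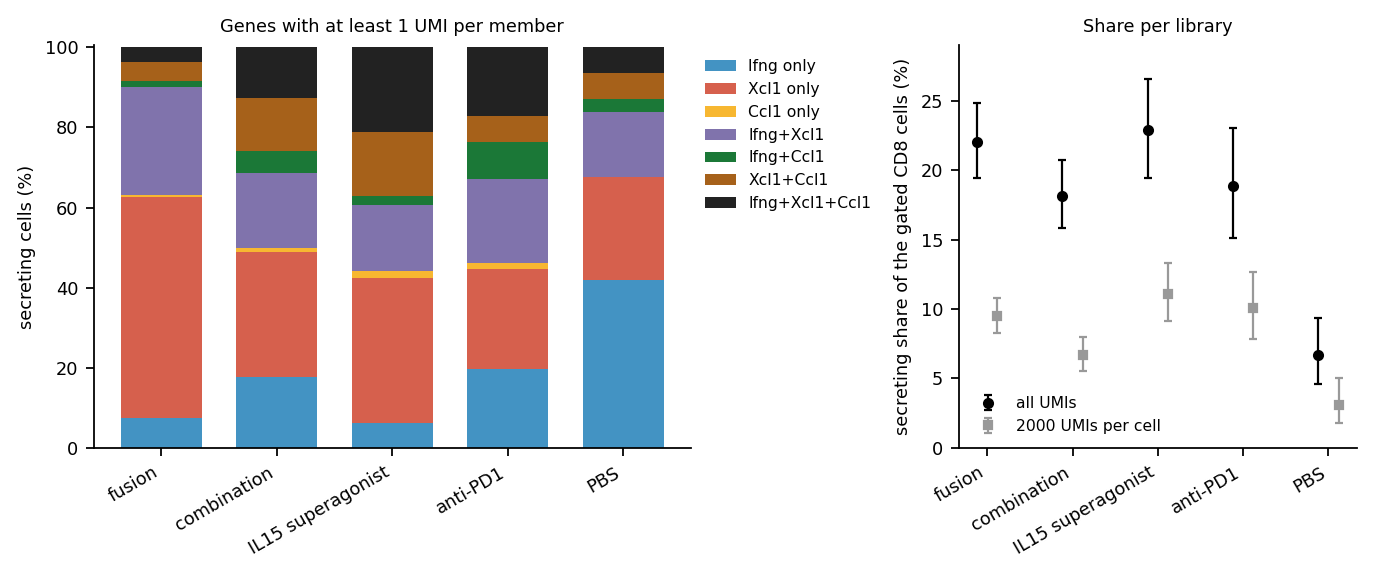
Left, stacked bars of the percent of members of each library with a UMI of Ifng, Xcl1 or Ccl1 alone or together. Right, secreting cells as a percent of the gated CD8 T cells with exact 95% intervals, from all UMIs (circles) and after thinning to 2000 UMIs (squares); Xcl1 alone is the largest class in fusion at 55.2%, Ifng alone the largest in PBS at 41.9%, and PBS has the lowest share, 6.67%.

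Secreting cells were set against cytokine-low cells of the same library to see what else differed between them. Higher in secreting cells were several secreted factors, 7 of 8 tested TNF-family surface ligands and 17 of 18 genes for making ribosomes. Lower were 15 of 18 interferon-stimulated genes and 9 of 13 residency and egress genes. Transcripts were summed per library and cell group, and the 5 sums of each were compared with edgeR's quasi-likelihood test with library as a block, after the selecting genes were removed. Adjusted p-values are Benjamini-Hochberg values over the 8054 genes tested, and log2 values are fitted ratios of secreting over cytokine-low cells. Of these genes, 839 were higher (10.4%) and 761 lower (9.45%) in secreting cells at an adjusted p under 0.05, and the median log2 ratio of all genes was -0.02. Leaving out the combination library left 802 genes called and leaving out IL15 superagonist left 921, against 1600 with all libraries; without PBS the count was 1442. The count was 884 with DESeq2, 296 without the library term and 650 with every cell thinned to 2000 UMIs. The p-values measure how far the difference between secreting and cytokine-low cells varied over these 5 libraries, each under a different treatment. The library term takes up differences in level between libraries.

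**Figure D2:**
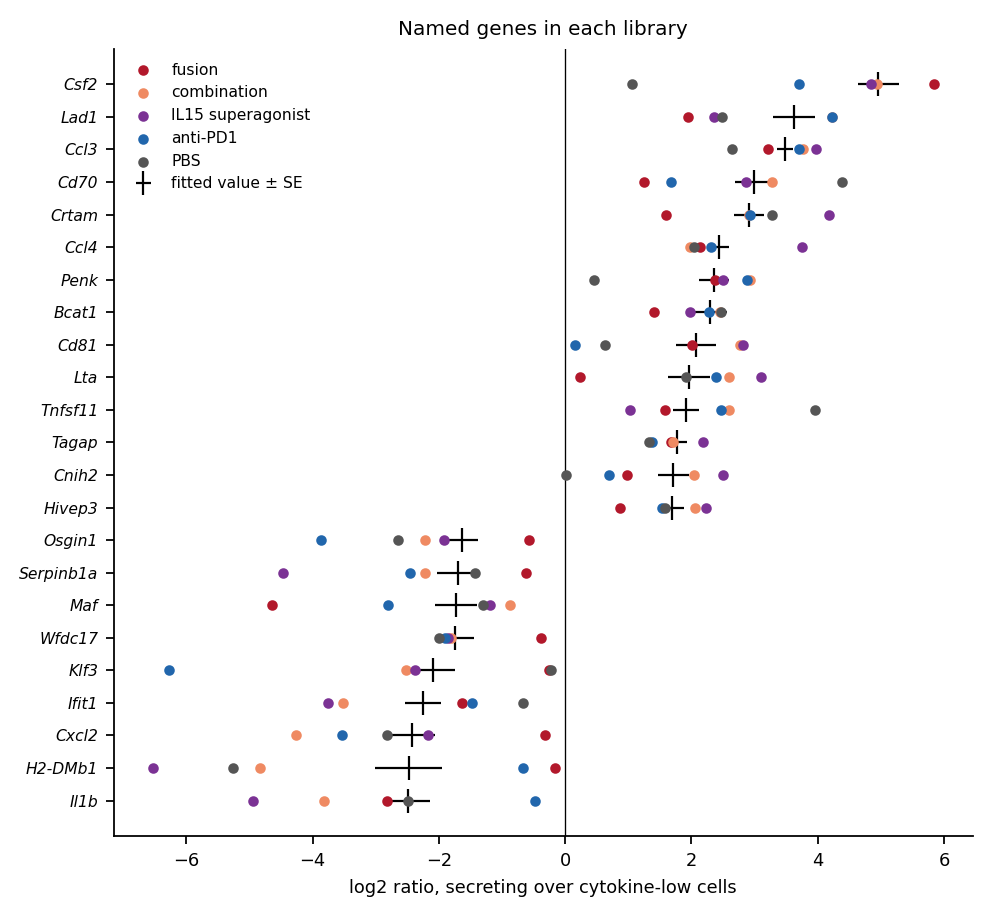
Log2 ratio of secreting over cytokine-low cells in each library (points, from TMM-scaled log2 CPM with a prior count of 1) and the fitted log2 ratio (black tick) with its standard error (black bar) for 23 of the 24 genes named by rule. Csf2 has the largest fitted ratio, 4.96 ± 0.33, and each gene shown has the same sign in all 5 libraries.

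Among other secreted factors, 6 of the 11 listed cytokine genes that were tested, of 23 on the list, were higher in secreting cells (Csf2, Penk, Lta, Spp1, Mif and Areg) and 2 were lower (Flt3l and Il16). Csf2 (chr11:54247271-54249667, minus strand in the GENCODE annotation of mm10) encodes GM-CSF, which acts on macrophages, neutrophils and dendritic cells. It stood at 83.6 CPM in fusion, 94.2 in combination, 57.1 in IL15 superagonist, 13.9 in anti-PD1 and 10.7 in PBS secreting cells. Csf2 in cytokine-low cells stood at 0.957 CPM in fusion, 2.51 in combination, 1.48 in IL15 superagonist, 0.558 in anti-PD1 and 4.52 in PBS. The groups did not overlap, and the gene was higher in secreting cells (log2 4.96 with SE 0.33, adjusted p = 5.2e-09, edgeR), but the PBS value rests on 2 UMIs from 1 of 31 members. Csf2 was carried by few members in every library: the members with a UMI of it numbered 25 in fusion, 15 in combination, 15 in IL15 superagonist, 5 in anti-PD1 and 1 in PBS.

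Penk, which encodes the opioid precursor proenkephalin, stood at 12.1 CPM in fusion, 315 in combination, 189.8 in IL15 superagonist, 287 in anti-PD1 and 165 in PBS secreting cells. Penk in cytokine-low cells stood at 1.91 CPM in fusion, 40.3 in combination, 33.1 in IL15 superagonist, 37.4 in anti-PD1 and 113 in PBS. The gene was higher in secreting cells within each library (log2 2.35 with SE 0.23, adjusted p = 1.5e-06), although its level in fusion members was below its cytokine-low level in the other 4 libraries. Lta, which encodes lymphotoxin alpha, was higher as well (log2 1.96, adjusted p = 3.1e-04). Tnf, the best-known companion of Ifng in effector T cells, was not called (log2 0.04, adjusted p = 0.93), with 19.5 to 40.0 CPM in secreting cells, against 12.7 to 39.7 CPM in cytokine-low cells.

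Of 7 chemokine genes tested, of 12 listed, Ccl3, Ccl4 and Ccl9 were higher in secreting cells and Cxcl2 and Ccl5 were lower. Ccl3 and Ccl4 are neighbours on chromosome 11 (Ccl3 chr11:83647844-83649355, minus strand; Ccl4 chr11:83662584-83664683, plus strand) and encode chemokines that attract leukocytes to sites of inflammation. Ccl3 stood at 303 CPM in fusion, 1696 in combination, 1789.8 in IL15 superagonist, 3127 in anti-PD1 and 2102 in PBS secreting cells. Ccl3 in cytokine-low cells stood at 31.8 CPM in fusion, 122 in combination, 113 in IL15 superagonist, 234 in anti-PD1 and 315 in PBS. The ranges overlap because fusion members lay below cytokine-low cells of PBS; within each library secreting cells were higher, and Ccl3 had the smallest adjusted p among the named genes (log2 3.48 with SE 0.13, adjusted p = 3.5e-13).

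Ccl4 stood at 1018 CPM in fusion, 1664 in combination, 3581 in IL15 superagonist, 4919 in anti-PD1 and 2411 in PBS secreting cells. Ccl4 in cytokine-low cells stood at 229 CPM in fusion, 413 in combination, 264 in IL15 superagonist, 965 in anti-PD1 and 549 in PBS. The lowest secreting value, in fusion, was just above the highest cytokine-low value, in anti-PD1 (log2 2.43 with SE 0.16, adjusted p = 5.2e-09). Ccl5, another chemokine, which memory and effector CD8 T cells store as transcript, went the other way. It stood at 2381 CPM in fusion, 7430.4 in combination, 6183 in IL15 superagonist, 3932 in anti-PD1 and 6241 in PBS secreting cells. Ccl5 in cytokine-low cells stood at 6069 CPM in fusion, 15191 in combination, 11708 in IL15 superagonist, 9892 in anti-PD1 and 10138 in PBS, and it was lower in secreting cells of all 5 libraries (log2 -1.10 with SE 0.06, adjusted p = 4.8e-10).

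Of the TNF-family surface ligands, all 8 tested of 9 listed were called, 7 of them higher and 1 lower, with a list median log2 of 1.58 against -0.02 over all genes. These membrane proteins signal to receptors on neighbouring cells. Tnfsf11 encodes RANKL, which acts on dendritic cells and osteoclast precursors. It stood at 153 CPM in fusion, 101.0 in combination, 100 in IL15 superagonist, 66.0 in anti-PD1 and 53.3 in PBS secreting cells. Tnfsf11 in cytokine-low cells stood at 50.5 CPM in fusion, 16.0 in combination, 48.5 in IL15 superagonist, 11.2 in anti-PD1 and 2.71 in PBS. Secreting values all exceeded cytokine-low values (log2 1.91 with SE 0.21, adjusted p = 6.1e-06), and the gene lost its call when the library term was left out. Cd70, the ligand of Cd27, was higher with log2 2.98, adjusted p = 1.5e-06, at 3.57 to 54.1 CPM in secreting cells, against 0.452 to 6.92 CPM in cytokine-low cells. Tnfsf14 (LIGHT) had log2 2.09, adjusted p = 3.5e-05, Tnfsf4 (OX40 ligand) 1.63, adjusted p = 5.8e-05, and Tnfsf8 (CD30 ligand) 1.53, adjusted p = 5.6e-05. Tnfsf9, the ligand of 4-1BB, and Tnfsf10 (TRAIL) were higher with log2 values of 1.15 and 0.71. Fasl, the death ligand that killer T cells use, was lower (log2 -0.49, adjusted p = 0.0037).

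**Figure D3:**
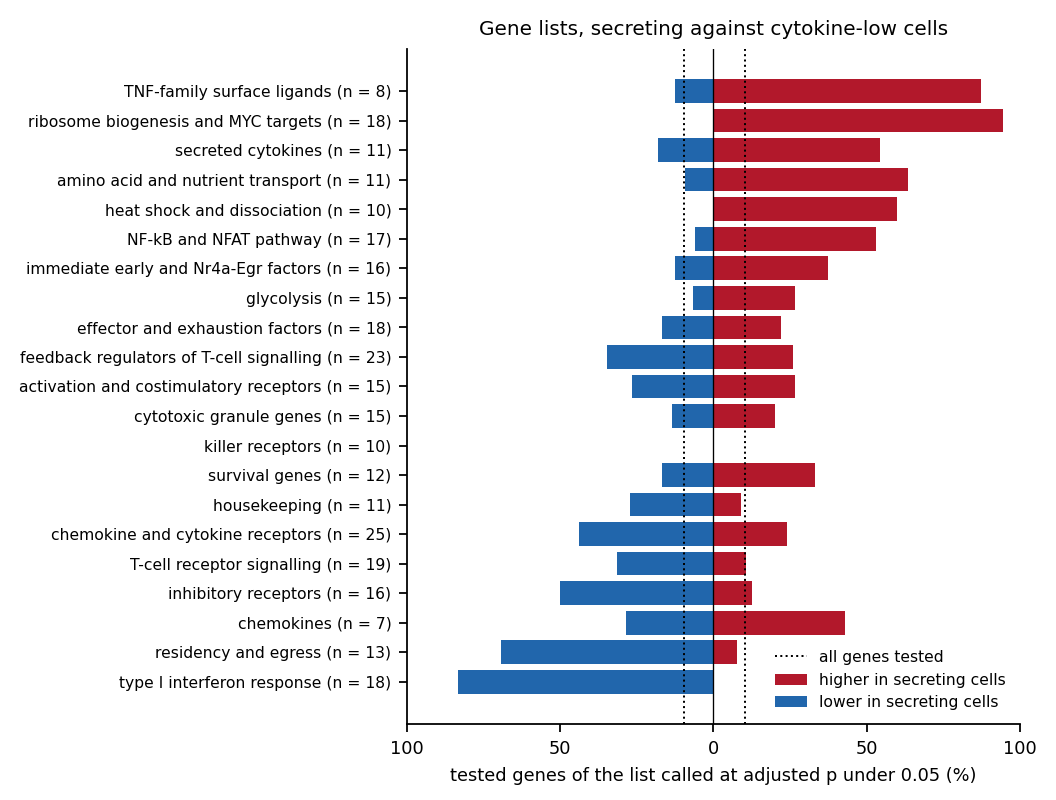
Percent of the tested genes of each list that were called higher (right) or lower (left) in secreting cells than in cytokine-low cells at an adjusted p under 0.05; dotted lines give the same over all genes tested, 10.4% higher and 9.45% lower. The TNF-family ligands have 7 of 8 higher, the ribosome biogenesis list 17 of 18 higher and the type I interferon list 15 of 18 lower.

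Receptors that T cells display after antigen contact were split. Of 15 activation and costimulatory receptors, 4 were higher (Crtam, Tnfrsf4, Tnfrsf9 and Cd82) and 4 lower (Slamf1, Icos, Cd28 and Cd2). Crtam (chr9:40969691-41004628, minus strand) encodes an adhesion receptor that activated CD8 T cells and NK cells display. It stood at 76.4 CPM in fusion, 203 in combination, 332 in IL15 superagonist, 113 in anti-PD1 and 74.7 in PBS secreting cells. Crtam in cytokine-low cells stood at 24.6 CPM in fusion, 26.2 in combination, 17.8 in IL15 superagonist, 13.9 in anti-PD1 and 6.78 in PBS. The groups did not overlap (log2 2.91 with SE 0.23, adjusted p = 6.8e-08). Tnfrsf4 (OX40) was higher with log2 0.93, adjusted p = 1.0e-05, and Tnfrsf9 (4-1BB) with log2 0.68, adjusted p = 6.2e-04.

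Among 25 tested cytokine and chemokine receptors, of 31 listed, 6 were higher and 11 lower. Il2ra, the high-affinity chain of the IL2 receptor, stood at 109 CPM in fusion, 168 in combination, 211 in IL15 superagonist, 170.3 in anti-PD1 and 64.0 in PBS secreting cells. Il2ra in cytokine-low cells stood at 54.8 CPM in fusion, 52.7 in combination, 56.9 in IL15 superagonist, 47.9 in anti-PD1 and 38.0 in PBS, and secreting cells were higher in all 5 libraries (log2 1.49 with SE 0.14, adjusted p = 7.1e-07). Ccr7, which guides T cells to lymph nodes and which the dendritic-cell marker list also holds, stood at 51.4 CPM in fusion, 727 in combination, 857 in IL15 superagonist, 500.4 in anti-PD1 and 389 in PBS secreting cells. Ccr7 in cytokine-low cells stood at 29.4 CPM in fusion, 144 in combination, 439.6 in IL15 superagonist, 153 in anti-PD1 and 158 in PBS (log2 1.45, adjusted p = 2.6e-06), and its level in fusion members was far below that in the other 4 libraries. The other markers of that list that were tested, H2-Aa, H2-Eb1, H2-Ab1 and Cd74, were lower in secreting cells. The lower receptors included Cxcr3 (log2 -1.08, adjusted p = 6.7e-04), which follows interferon-induced chemokines, Il7r (log2 -0.97, adjusted p = 0.0068), which supports memory cells, and Cxcr6 (log2 -0.35, adjusted p = 0.0041), found on tissue-resident T cells.

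Transcription factors that respond to antigen receptor signals were partly higher. Of 16 immediate early and Nr4a-Egr factors tested, of 18 listed, Myc, Nr4a1, Junb, Fosb, Nr4a3 and Nr4a2 were higher and Crem and Fosl2 lower. Myc, a driver of T-cell growth, had log2 1.55, adjusted p = 1.1e-04, and was higher in 4 of 5 libraries, with the exception of PBS. Nr4a1, a reporter of recent receptor signalling, had log2 0.81, adjusted p = 8.9e-06, while Egr1 had log2 -0.34, adjusted p = 0.06 and was not called. Tissue dissociation is also known to induce immediate early and heat-shock genes; of 10 heat-shock genes tested, 6 were higher and 0 lower in secreting cells, and their part in the higher immediate early genes was not tested. Of 17 NF-kB and NFAT pathway genes tested, of 18 listed, 9 were higher and 1, Nfatc3, was lower. Rel, the NF-kB subunit that drives cytokine genes in lymphocytes, stood at 131 CPM in fusion, 430.1 in combination, 458 in IL15 superagonist, 288 in anti-PD1 and 379 in PBS secreting cells. Rel in cytokine-low cells stood at 72.7 CPM in fusion, 150.0 in combination, 163 in IL15 superagonist, 117 in anti-PD1 and 146 in PBS, higher in secreting cells of all 5 libraries (log2 1.29 with SE 0.10, adjusted p = 4.7e-08).

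Factors tied to effector and exhausted states mostly went uncalled: of 18 tested, of 22 listed, Zeb2, Bhlhe40, Irf8 and Id2 were higher and Maf, Runx3 and Ikzf3 lower. Tox, Tbx21 and Eomes, which mark exhausted or effector CD8 T cells, had log2 values of -0.28, 0.18 and 0.03 and were not called. Of 16 inhibitory receptors, Cd200 and Cd160 were higher and 8 were lower, Pdcd1 among them. Pdcd1, which encodes PD-1, stood at 848 CPM in fusion, 597 in combination, 635 in IL15 superagonist, 533 in anti-PD1 and 331 in PBS secreting cells. Pdcd1 in cytokine-low cells stood at 1022 CPM in fusion, 746 in combination, 757 in IL15 superagonist, 607 in anti-PD1 and 412 in PBS, a small difference (log2 -0.30 with SE 0.07, adjusted p = 0.003). Lag3 (log2 0.20, adjusted p = 0.22) and Havcr2 (log2 0.27, adjusted p = 0.13) were not called.

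Most genes of the killing machinery were not called. Of 15 cytotoxic granule genes tested, of 18 listed, Stx11, Serpinb6b and Srgn were higher and Ctsw and Ctsd lower. Gzmb, the main cytotoxic granzyme, had log2 -0.21, adjusted p = 0.066, Prf1, which encodes perforin, 0.22, adjusted p = 0.18, and Gzma -0.20, adjusted p = 0.24; none was called. None of the 10 killer receptors tested, of 15 listed, was called either.

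Genes of cell growth were mostly higher in secreting cells. Of 18 ribosome biogenesis and MYC target genes, 17 were higher in secreting cells and 0 were lower, with a list median of 0.92. Srm, which makes spermidine, stood at 76.4 CPM in fusion, 137 in combination, 127 in IL15 superagonist, 167 in anti-PD1 and 133 in PBS secreting cells. Srm in cytokine-low cells stood at 50.2 CPM in fusion, 41.5 in combination, 35.1 in IL15 superagonist, 29.5 in anti-PD1 and 29.8 in PBS, and the groups did not overlap (log2 1.62 with SE 0.18, adjusted p = 6.3e-06). The nucleolar genes Ncl (log2 0.74, adjusted p = 1.3e-05) and Npm1 (log2 0.43, adjusted p = 1.3e-04) were higher by less. Of 11 amino acid and nutrient transport genes, 7 were higher, among them the arginine carrier Slc7a1 (log2 1.21, adjusted p = 2.9e-05) and the transferrin receptor Tfrc (log2 0.94, adjusted p = 1.0e-04), and Slc3a2 was lower. Of 15 glycolysis genes, 4 were higher, led by the hexokinase Hk2 (log2 1.20, adjusted p = 0.0012), and 1 was lower. Of 10 heat-shock genes tested, of 11 on a list that also serves to track the stress of tissue dissociation, 6 were higher, led by Hspd1 (log2 1.01, adjusted p = 7.8e-06) and 0 were lower. Among the other lists, 2 of 19 T-cell receptor signalling genes were higher and 6 lower, 6 of 23 feedback regulators higher and 8 lower, 4 of 12 survival genes higher and 2 lower, and 1 of 11 housekeeping genes higher and 3 lower.

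Interferon-stimulated genes were lower in the cells chosen for Ifng, Xcl1 and Ccl1 than in cytokine-low cells. Of 18 type I interferon response genes tested, of 20 listed, 15 were lower and 0 higher, with a list median of -1.0. Ifit1, an antiviral protein induced by interferon, stood at 13.6 CPM in fusion, 2.02 in combination, 2.04 in IL15 superagonist, 13.9 in anti-PD1 and 10.7 in PBS secreting cells. Ifit1 in cytokine-low cells stood at 42.8 CPM in fusion, 28.0 in combination, 34.1 in IL15 superagonist, 38.5 in anti-PD1 and 16.3 in PBS, higher than in secreting cells of each library (log2 -2.25 with SE 0.29, adjusted p = 2.4e-05). Ifit3 (log2 -2.50, adjusted p = 5.6e-05), Rtp4 (log2 -1.57, adjusted p = 2.7e-05), Irf7 (log2 -1.08, adjusted p = 1.7e-04) and Isg15 (log2 -0.63, adjusted p = 0.0011) were lower as well.

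Residency and egress genes were lower in 9 of 13 tested, of 16 listed, and Ccr7 was the 1 gene that was higher. Klf2, the factor that keeps T cells in circulation (log2 -0.99, adjusted p = 0.0023), and its relative Klf3 (log2 -2.09, adjusted p = 2.8e-04) were lower. Of the selecting genes, Tcf7, Lef1 and S1pr1 belong to the same circulating state; they were held low in both groups by the gate.

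Genes typical of myeloid and antigen-presenting cells were also lower in secreting cells. H2-Aa, an MHC class II chain of dendritic cells, macrophages and B cells, stood at 12.9 CPM in fusion, 10.8 in combination, 8.16 in IL15 superagonist, 299 in anti-PD1 and 0 in PBS secreting cells. H2-Aa in cytokine-low cells stood at 47.1 CPM in fusion, 165 in combination, 369 in IL15 superagonist, 238 in anti-PD1 and 301 in PBS (log2 -2.28, adjusted p = 0.002); in anti-PD1, 1 member held 98.3% of the H2-Aa UMIs. Il1b (log2 -2.50, adjusted p = 7.0e-05) and Cxcl2 (log2 -2.43, adjusted p = 1.1e-04) are products of activated myeloid cells. Il1b stood at 5.71 CPM in fusion, 4.04 in combination, 3.06 in IL15 superagonist, 66.0 in anti-PD1 and 16.0 in PBS secreting cells, and 1 member held 92.1% of its anti-PD1 UMIs. Il1b in cytokine-low cells stood at 43.0 CPM in fusion, 62.7 in combination, 109.8 in IL15 superagonist, 89.8 in anti-PD1 and 87.3 in PBS. Macrophage and dendritic-cell marker sums, given above, were lower in the secreting cells of 4 of the 5 libraries, the exceptions being fusion for macrophages and anti-PD1 for dendritic cells. The dendritic-cell sums include Ccr7, which was higher in secreting cells. Of the 8 macrophage markers 3 were tested, and only Ly6c2 was called lower (log2 -0.64, adjusted p = 6.0e-04, edgeR). Cd68 (log2 -0.33) and Lyz2 (log2 -0.51) were not called, so the macrophage sum is no measure of macrophage transcripts alone. Of the 8 macrophage markers, those detected in secreting cells numbered 8 in fusion, 7 in combination, 7 in IL15 superagonist, 4 in anti-PD1 and 4 in PBS, and those detected in cytokine-low cells numbered 8 in fusion, 7 in combination, 8 in IL15 superagonist, 7 in anti-PD1 and 8 in PBS. Of the 11 dendritic-cell markers, those detected in secreting cells numbered 5 in fusion, 6 in combination, 7 in IL15 superagonist, 8 in anti-PD1 and 3 in PBS, and those detected in cytokine-low cells numbered 11 in fusion, 11 in combination, 8 in IL15 superagonist, 10 in anti-PD1 and 10 in PBS. Adgre1 was at 0 in secreting cells of all libraries but fusion and in cytokine-low cells of anti-PD1, and Siglech was at 0 in secreting cells of all 5 libraries and in cytokine-low cells of IL15 superagonist and PBS. The part of these markers in the lower myeloid genes was not tested.

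By the rule for named genes, the remaining higher genes were Lad1, Bcat1, Cd81, Tagap, Cnih2 and Hivep3. Lad1, a filament-anchoring protein of epithelia, had log2 3.62, adjusted p = 6.6e-07, and Bcat1, a branched-chain amino acid transaminase, 2.29, adjusted p = 1.2e-05. The tetraspanin Cd81 had log2 2.07, adjusted p = 1.1e-04, and Tagap, a GTPase-activating protein of activated T cells, 1.77, adjusted p = 2.5e-07. Cnih2 had log2 1.71, adjusted p = 5.5e-05 and Hivep3, a zinc-finger protein, 1.69, adjusted p = 7.3e-06. The remaining lower genes were the transcription factor Maf (log2 -1.73, adjusted p = 9.2e-04), H2-DMb1 of the MHC class II pathway (log2 -2.48, adjusted p = 0.0024), Serpinb1a, an inhibitor of neutrophil proteases (log2 -1.70, adjusted p = 0.0012), Osgin1 (log2 -1.64, adjusted p = 1.7e-04) and Wfdc17 (log2 -1.75, adjusted p = 3.6e-04). With cells thinned, Wfdc17 had log2 -0.23 and an adjusted p of 0.85 (edgeR).

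Members differed among themselves by which of the 3 transcripts they carried. The split of members by an Ifng UMI was chosen after values were seen and rests on the selecting genes, so it is given without a test. Members with an Ifng UMI numbered 84 in fusion, 99 in combination, 59 in IL15 superagonist, 51 in anti-PD1 and 21 in PBS, and members without one numbered 128 in fusion, 83 in combination, 68 in IL15 superagonist, 25 in anti-PD1 and 10 in PBS. Ccl3 stood at 708 CPM in fusion, 2909 in combination, 3219.8 in IL15 superagonist, 4195 in anti-PD1 and 2779.6 in PBS members with Ifng. Ccl3 without Ifng stood at 11.1 CPM in fusion, 160.2 in combination, 341 in IL15 superagonist, 219.9 in anti-PD1 and 410.2 in PBS. Ccl3 was thus higher in the members with Ifng in each library. Members with Ifng were also the deeper cells, with median UMIs of 6369.5 in fusion, 7754 in combination, 7705 in IL15 superagonist, 7842 in anti-PD1 and 5737 in PBS, against 6125 in fusion, 7098 in combination, 6735 in IL15 superagonist, 5284 in anti-PD1 and 5428 in PBS members without Ifng, and the part of depth in this split was not tested.

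Ccl4 followed the same split, with 2210.1 CPM in fusion, 2735 in combination, 6271 in IL15 superagonist, 6621 in anti-PD1 and 3228 in PBS members with Ifng. Ccl4 without Ifng stood at 159 CPM in fusion, 307 in combination, 855 in IL15 superagonist, 285 in anti-PD1 and 373 in PBS. Gzmb, which was not called against cytokine-low cells, stood at 2118 CPM in fusion, 1412 in combination, 1571 in IL15 superagonist, 1532 in anti-PD1 and 964 in PBS members with Ifng. Gzmb without Ifng stood at 1661 CPM in fusion, 543 in combination, 682 in IL15 superagonist, 427 in anti-PD1 and 131 in PBS. Its level was lower without Ifng in all 5 libraries, by the smallest ratio in fusion. Prf1 lay at 191 CPM in fusion, 385 in combination, 276 in IL15 superagonist, 634 in anti-PD1 and 239 in PBS members with Ifng. Prf1 without Ifng lay at 152 CPM in fusion, 203 in combination, 154 in IL15 superagonist, 90.6 in anti-PD1 and 55.9 in PBS.

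Ccr7 was the reverse in 4 libraries. It stood at 56.3 CPM in fusion, 678 in combination, 519 in IL15 superagonist, 418 in anti-PD1 and 187 in PBS members with Ifng. Ccr7 without Ifng stood at 47.9 CPM in fusion, 789 in combination, 1199.7 in IL15 superagonist, 724 in anti-PD1 and 895 in PBS, and fusion was the exception. Crtam showed no common direction, with 100.6 CPM in fusion, 158 in combination, 375 in IL15 superagonist, 90.3 in anti-PD1 and 44.8 in PBS members with Ifng. Crtam without Ifng stood at 59.0 CPM in fusion, 261 in combination, 288 in IL15 superagonist, 175 in anti-PD1 and 149 in PBS.

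**Figure D4:**
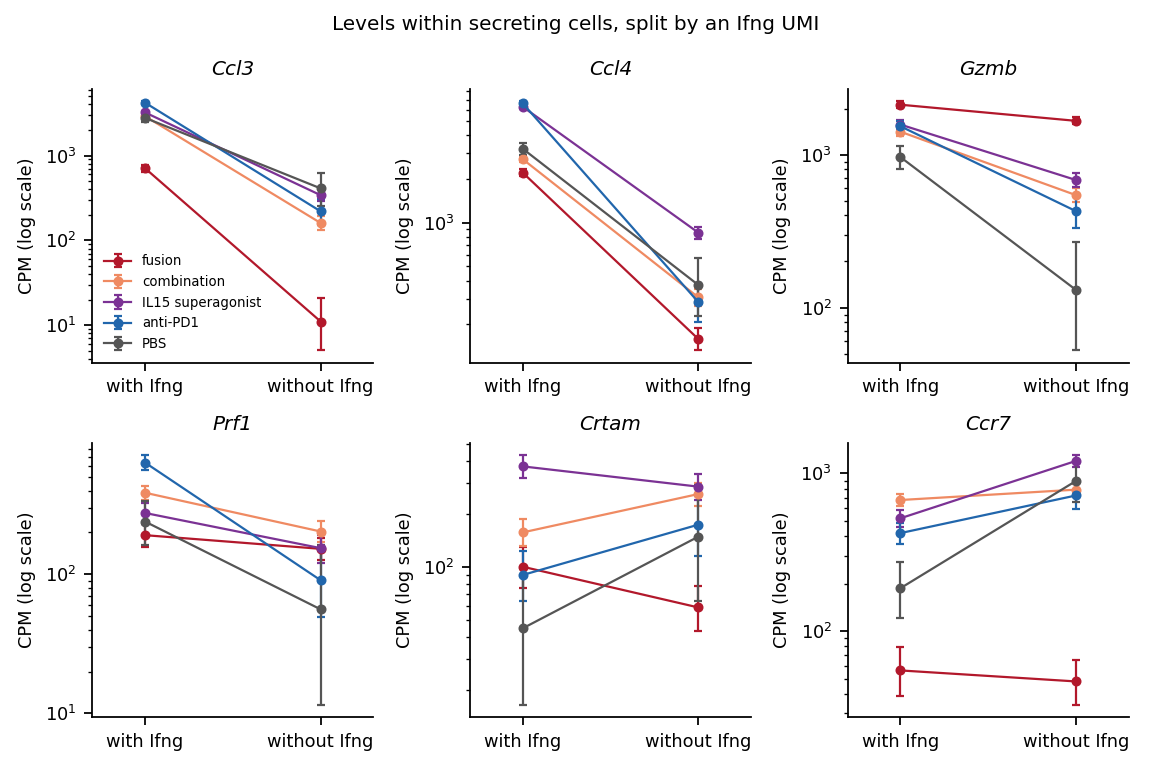
Levels (CPM, log axis) of Ccl3, Ccl4, Gzmb, Prf1, Crtam and Ccr7 in members with and without an Ifng UMI, 1 line per library, with exact Poisson 95% intervals. In fusion, Ccl3 lies at 708 CPM with Ifng and 11.1 CPM without it, and Ccr7 is higher without Ifng in the other 4 libraries.

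Secreting cells were next set against the neighbouring CD8 T cells that the gates on Gzmk and on Gzmc, Gzmd, Gzme and Gzmf had removed, both kinds with at most 2 UMIs of the 3 cytokine genes. These comparisons use the same secreting sums as the one above and so are not independent of it. Gzmk-positive cells numbered 410 in fusion, 699 in combination, 314 in IL15 superagonist, 160 in anti-PD1 and 108 in PBS. Of 7354 genes tested against them, 885 were higher (12%) and 804 lower (10.9%) in secreting cells, with 930 called without combination, 957 without IL15 superagonist and 1519 without PBS. Secreted and surface signals were higher here too: Csf2 had log2 5.22, adjusted p = 3.4e-06, Tnfsf11 3.90, adjusted p = 4.4e-07, Ccl3 3.77, adjusted p = 1.2e-06, Ccr7 3.72, adjusted p = 4.4e-07 and Crtam 3.13, adjusted p = 2.7e-08. Ribosome biogenesis genes were higher in 17 of 17 tested and the type I interferon list lower in 14 of 18. Of 15 cytotoxic granule genes tested, 1 was higher (Stx11) and 5 were lower (Gzma, Gzmb, Ctsd, Ctsw and Rab27a), against 3 higher and 2 lower in the comparison with cytokine-low cells, where Gzma and Gzmb were not called. Gzma (log2 -1.68, adjusted p = 2.6e-06) and Gzmb (log2 -0.72, adjusted p = 8.4e-05) were lower in secreting cells, with Ccl5 (log2 -1.76, adjusted p = 9.3e-09) and Klrg1, a receptor of terminal effector cells (log2 -1.84, adjusted p = 1.0e-04). Whether the 2 comparisons differ for these genes was not tested.

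Granzyme C-F-high cells numbered 906 in fusion, 117 in combination, 44 in IL15 superagonist, 29 in anti-PD1 and 16 in PBS. Of 6189 genes tested against them, 224 were higher (3.62%) and 236 lower (3.81%) in secreting cells, with 168 called without combination, 217 without IL15 superagonist and 387 without PBS. Crtam (log2 3.47, adjusted p = 2.3e-07), Ccl3 (3.17, adjusted p = 1.2e-05), Ccr7 (3.07, adjusted p = 8.0e-06), Csf2 (3.0, adjusted p = 2.2e-05), Ccl4 (2.97, adjusted p = 9.2e-07) and Myc (2.37, adjusted p = 6.7e-04) were higher. Ccl5 was not called (log2 0.04, adjusted p = 0.92). Gzmb (log2 -1.33, adjusted p = 1.2e-06) and Prf1 (-1.24, adjusted p = 2.1e-06) were lower in secreting cells, and 5 of 15 glycolysis genes were lower with none higher. Of 17 NF-kB and NFAT genes 9 were higher, and of 16 ribosome biogenesis genes 8. The type I interferon list was not broadly lower here. Of 12 genes tested, of 20 listed, 3 were lower and 1, Ifi27l2a, was higher, with a list median log2 of -0.06. Crtam, Ccl3, Ccr7, Csf2 and Ccl4 were thus higher in secreting cells than in each of the 3 kinds of CD8 T cell they were set against. So was Penk, with log2 3.15 (adjusted p = 8.2e-05, edgeR) against Gzmk-positive and 1.32 (adjusted p = 0.017) against granzyme C-F-high cells. Some other secreted factors were not. Spp1 (log2 -1.27, adjusted p = 0.0052, edgeR), Areg (-0.58, adjusted p = 0.029) and Ccl9 (-1.27, adjusted p = 0.021) were lower than in granzyme C-F-high cells. The same genes were higher in secreting cells than in cytokine-low and Gzmk-positive cells.

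Levels in secreting cells were then compared between treatments to see how the same gated cells differed under each. Each library is 1 sample, so there is no test: a gene is counted as higher or lower where its ratio was 2-fold or more among genes with at least 50 UMIs over both sums, and intervals are exact 95% intervals for counting error. All 4 comparisons with PBS share the same 31 PBS members. Scaling by TMM instead of total UMIs would raise the log2 ratios of treated over PBS members by 0.13 to 0.24, and would raise the share of higher genes among those counted to 79.4% in fusion, 85.2% in combination, 82.8% in IL15 superagonist and 86.6% in anti-PD1, against 61.1% in fusion, 69.5% in combination, 66.6% in IL15 superagonist and 73.5% in anti-PD1 without it.

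Fusion members held more of the interferon-induced membrane genes and of Gzma than PBS members, and less of the chemokines Ccl3, Ccl4 and Ccl5. Of 3653 genes, 500 (13.7%) were 2-fold or more higher and 318 (8.71%) lower. Ifitm1, a membrane protein that interferons and cytokines induce, had 2873 UMIs (2052 CPM) in fusion members and 0 in PBS members. With the limit of 3 counts in place of 0 it was 128-fold higher, and the exact interval reached down to 104-fold. Ifitm2, also at 0 in PBS members, was 66.9-fold higher with that limit, and its exact interval reached down to 54.4-fold. Ifitm3 was 73.5-fold (13.1 to 2908) higher on 1 PBS UMI. No source used here says how reads shared between these similar genes were counted. Among cytokine-low cells of the same libraries, Ifitm1 was 30.2-fold and Ifitm2 10.5-fold higher in fusion, so both genes differed outside the members too. Of 11 type I interferon genes measured, 9 were 2-fold or more higher and 0 lower. Gzma had 533 CPM in fusion members and 10.7 CPM (2 UMIs) in PBS members, 49.9-fold (13.8 to 413) higher, and 13.6-fold in cytokine-low cells. Amica1 (an adhesion molecule) was 21.6-fold (3.81 to 857) higher and Nab2 (a partner of Egr factors) 14.6-fold (2.56 to 582), each on 1 PBS UMI. In cytokine-low cells Amica1 was 4.87-fold and Nab2 1.31-fold (0.998 to 1.74) higher in fusion. The lower genes were led by Ccr7, 7.57-fold lower (5.39 to 10.6), and Ccl3, 6.94-fold lower (6.04 to 7.98); in cytokine-low cells Ccr7 was 5.36-fold and Ccl3 9.89-fold lower in fusion, so these too differed outside the members. Ccl4 and Ccl5 were 2.37-fold and 2.62-fold lower in members, against 2.40-fold and 1.67-fold lower in cytokine-low cells, and Eea1, Msi2, Trps1 and Prkrir completed the genes named by rule.

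Combination members against PBS members had 376 genes (9.57%) higher and 165 (4.2%) lower of 3929. Gzma had 660.3 CPM in combination members and 10.7 CPM (2 UMIs) in PBS members, 61.9-fold (17.1 to 512) higher. In cytokine-low cells it was 11.5-fold higher in combination. Crtam was 2.72-fold (1.60 to 5.04) higher, Il2ra 2.63-fold (1.48 to 5.16) and Csf2 8.83-fold (2.40 to 73.7). Amica1, Cnih2, Il12rb2 (a chain of the IL12 receptor), Fhl2 and Nab2 were each about 10-fold or more higher on 1 PBS UMI. In cytokine-low cells ratios over PBS were 2.69 for Amica1, 2.75 for Cnih2, 5.93 for Il12rb2, 1.31 for Fhl2 and 0.914 for Nab2. The lower genes named by rule were Gm10076, Sod1, Hnrnpa0, Gfpt1, Calu and Casc3, of which Sod1, an antioxidant enzyme, was 4.69-fold lower (2.86 to 7.57).

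IL15 superagonist members against PBS members had 257 genes (8.63%) higher and 129 (4.33%) lower of 2977. Gzma had 686 CPM in IL15 superagonist members and 10.7 CPM (2 UMIs) in PBS members, 64.3-fold (17.7 to 532) higher. In cytokine-low cells it was 13.7-fold higher in IL15 superagonist. Crtam was 4.44-fold (2.61 to 8.21) higher and Il2ra 3.30-fold (1.85 to 6.49). Amica1, Ccdc184, Cxcl10 (a Cxcr3 ligand), Cnih2 and B3gnt2 were higher on 1 PBS UMI each, and Hnrnpa0, Rassf1, Rbl2, Bcl11b, Gfpt1 and Slk were lower. In cytokine-low cells Ccdc184 went the other way, 3.03-fold lower in IL15 superagonist. Amica1 was 2.70-fold, Cxcl10 3.41-fold, Cnih2 2.09-fold (0.962 to 4.79) and B3gnt2 5.29-fold higher there. Bcl11b, a factor of T-cell identity, was 4.45-fold lower (2.44 to 8.07).

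Anti-PD1 members against PBS members had 108 genes (5.25%) higher and 39 (1.89%) lower of 2059. Amica1, Il12rb2, Ifitm3 and Gm20400 were higher on 1 PBS UMI each. In cytokine-low cells ratios over PBS were 2.64 for Amica1, 3.30 for Il12rb2, 1.27 for Ifitm3 and 6.41 for Gm20400. H2-Aa and H2-Eb1 were higher in members too, but 1 anti-PD1 member held 98.3% and 97.1% of their UMIs. Prf1 was 2.61-fold (1.84 to 3.83) higher and Ccl4 2.04-fold (1.85 to 2.26). The lower genes were Sod1, Rbl2, Prkrir, 1700017B05Rik, Itga4 (the integrin alpha 4 chain) and Tuba1b. Cd160, an inhibitory receptor, was higher than in PBS members in each treated library, by 3.91-fold in fusion, 3.26-fold in combination, 3.70-fold in IL15 superagonist and 3.32-fold in anti-PD1.

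The fusion joins IL15 and anti-PD1 in 1 protein and the combination gives an IL15 agent beside anti-PD1; this comparison does not use PBS. Of 5349 genes, 126 (2.36%) were 2-fold or more higher and 213 (3.98%) lower in fusion members. Ifitm1 had 2052 CPM in fusion members and 76.1 CPM in combination members, 27.0-fold (22.3 to 32.8) higher, against 5.40-fold in cytokine-low cells. Ifitm2 was 16.8-fold (13.6 to 20.8) higher and Ifitm3 8.69-fold (6.74 to 11.4); 5 of 11 type I interferon genes were higher and 0 lower. The cell-cycle genes Rrm2 at 9.76-fold (3.89 to 31.5) and 2810417H13Rik at 5.69-fold (4.06 to 8.15) were higher, with 1500009L16Rik at 8.13-fold (3.47 to 23.3), although Mki67 and Top2a were gated low. In cytokine-low cells Rrm2 was 8.74-fold, 2810417H13Rik 12.1-fold and 1500009L16Rik 3.43-fold higher in fusion, so these genes differed outside the members too. Cxcr3 was 3.07-fold (1.99 to 4.86) higher, Ccr2, which follows monocyte chemokines, 2.44-fold (1.76 to 3.44) and the survival gene Bcl2 3.22-fold (2.50 to 4.19).

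Several genes that separated secreting from cytokine-low cells were lower in fusion members than in combination members. Penk had 12.1 CPM in fusion members and 315 CPM in combination members, 25.9-fold lower (16.0 to 44.9), and it was 21.1-fold lower in cytokine-low cells. Ccr7 was 14.1-fold lower (11.1 to 18.2), against 4.90-fold lower in cytokine-low cells. Lad1 was 27.8-fold lower (7.36 to 235), Cd70 11.3-fold lower (4.59 to 36.1) and Ccl3 5.60-fold lower (5.05 to 6.22); in cytokine-low cells Cd70 was 3.05-fold and Ccl3 3.84-fold lower in fusion. Crtam, Tnfrsf4, Tnfsf4, Rel and Zeb2 were 2.66-fold, 2.73-fold, 5.08-fold, 3.27-fold and 3.45-fold lower, and Ptprk and Pqlc1 completed the genes named by rule. Csf2 stood at 83.6 CPM in fusion members and 94.2 CPM in combination members, a ratio of 0.887 (0.688 to 1.14). Fusion members thus had the lowest Ccl3, Penk, Ccr7 and Ccl5 of all 5 libraries and the highest Ifitm1, while Csf2 was not counted as different from combination.

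**Figure D5:**
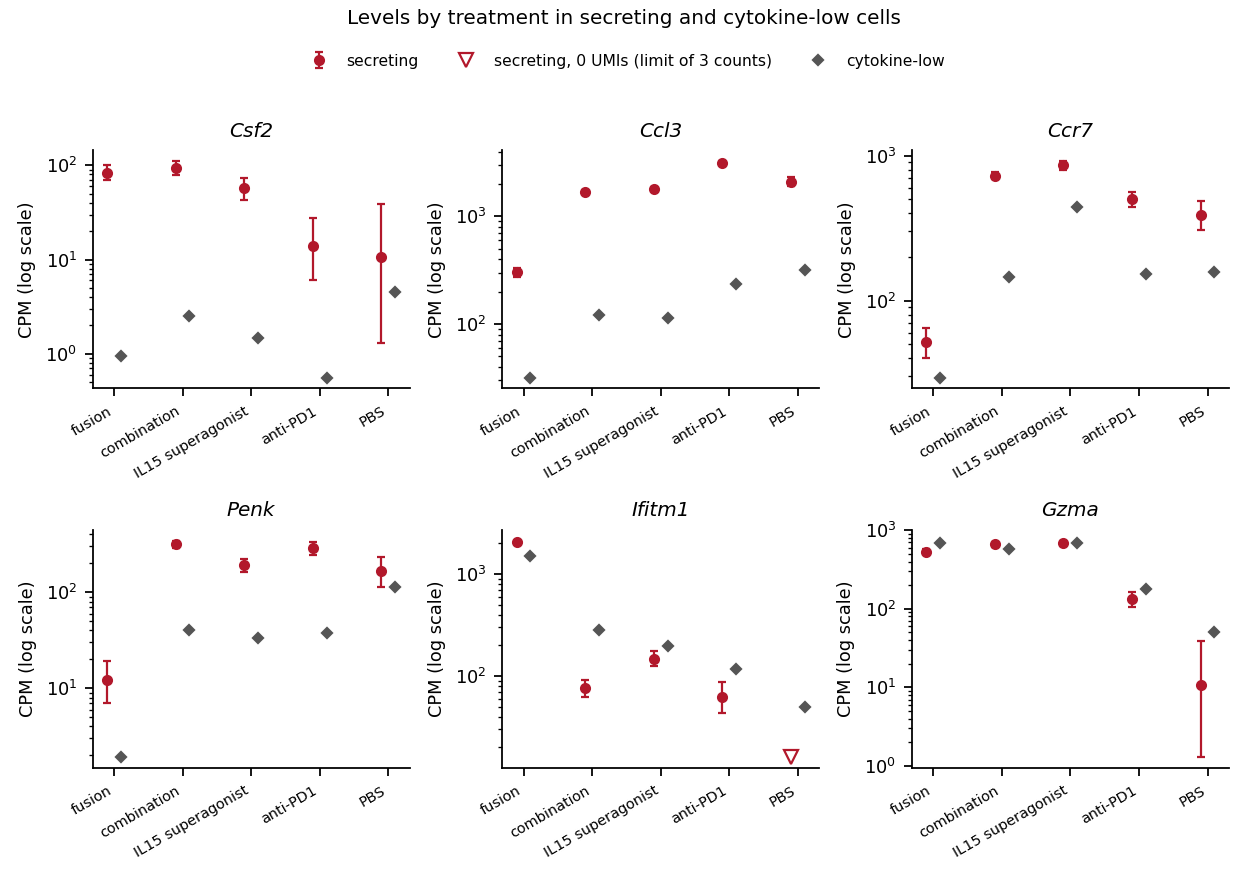
Levels (CPM, log axis) of Csf2, Ccl3, Ccr7, Penk, Ifitm1 and Gzma in each library, in secreting cells (circles, exact Poisson 95% intervals; open triangle, limit of 3 counts where there were 0 UMIs) and cytokine-low cells (diamonds). Ifitm1 lies at 2052 CPM in fusion members and 76.1 CPM in combination members, and Ccl3 at 303 CPM in fusion members and 1696 CPM in combination members.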

How the data were processed

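Per the submitters' processing notes, the authors made the deposited UMI counts with Cell Ranger 2.1.1 on mm10; each matrix gives counts per gene and barcode, with no normalization. No source used here gives their barcode filter, annotation or handling of shared reads. The members and the gene lists were chosen with earlier results of these data known.

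Genes that share 1 symbol (58 symbols) were kept apart by their identifiers. Counts were summed per library and cell group and tested with edgeR 4.0.16 in R 4.3.3 (TMM, quasi-likelihood, filterByExpr with a minimum count of 10, library as a block because both sums of a library come from the same tumor sample, Benjamini-Hochberg, threshold 0.05); the 22 selecting genes were left out. The script was tested on simulated data. Levels are CPM over all UMIs of a cell group. Comparisons of treatments, with 1 library each, use exact Poisson and exact conditional 95% intervals. DESeq2 1.42.0, other scalings, filters, thresholds, thinning and leaving out each library or the shared barcodes (chosen after seeing the data) were alternatives. Of 419 listed genes, 418 were found. Named genes are the 14 higher and 10 lower with the largest log2 ratio among called genes with the same sign in 5 libraries and at least 20 CPM, and the 6 higher and 6 lower by ratio in each comparison of treatments, with examples from the lists; 1 gene named by rule is not reported here.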

Additional observations from a re-analysis of the deposited data

How the results depend on the processing

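Without shared barcodes the comparison with cytokine-low cells called 1516 genes. Against cytokine-low, Gzmk-positive and granzyme C-F-high cells (1600, 1689 and 460 genes called), DESeq2 called 884 and 1064 in the first pair; leaving out the replicate block called 296, 655 and 80; thinning called 650, 755 and 157; and leaving out 1 library gave 802 to 1968, 930 to 2171 and 168 to 583. Of the 1600 genes, DESeq2 called 883 in the same direction. The replicate block pairs the 2 sums of each library.

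Counts for fusion, combination, IL15 superagonist and anti-PD1 against PBS and for fusion against combination were 294, 115, 112, 38 and 98 after thinning and 367, 211, 153, 52 and 142 with at least 100 UMIs, against 818, 541, 386, 147 and 339. Shares of secreting cells in fusion, combination, IL15 superagonist, anti-PD1 and PBS were 9.49%, 6.66%, 11.1%, 10.1% and 3.12% after thinning and 2.45%, 2.14%, 1.90%, 1.04% and 0.521% of barcodes under the mitochondrial limit. At a threshold of 5 UMIs they were 15.2%, 13.7%, 18.6%, 15.4% and 3.44%. Of the called genes still tested after thinning, 1389 of 1405 kept their direction against cytokine-low, 940 of 943 against Gzmk-positive and 295 of 295 against granzyme C-F-high cells; no gene named by rule turned. Cd81, H2-DMb1, Maf, Penk, Serpinb1a, Tnfsf11 and Wfdc17 lost their call without the block, H2-DMb1 and Klf3 with DESeq2, and Wfdc17 after thinning (log2 -0.23, adjusted p = 0.85); the cause was not tested. Depth limits PBS members most: 3 counts there are 16.0 CPM.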

Other observations

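Members with a Ccl1 UMI held higher levels of Xcl1, itself a selecting gene, and of Crtam than members without one in each library. These splits were chosen after values were seen and have no test. Xcl1 stood at 2671 CPM in fusion, 4591 in combination, 4642 in IL15 superagonist, 3648 in anti-PD1 and 5858 in PBS members with Ccl1. Xcl1 without Ccl1 stood at 1216 CPM in fusion, 1766 in combination, 2170.0 in IL15 superagonist, 2578 in anti-PD1 and 842 in PBS, lower in each library. Crtam stood at 393 CPM in fusion, 295 in combination, 540.5 in IL15 superagonist, 131 in anti-PD1 and 90.6 in PBS with Ccl1. Crtam without Ccl1 stood at 42.7 CPM in fusion, 151 in combination, 161 in IL15 superagonist, 103 in anti-PD1 and 71.3 in PBS, again lower in each library. The differences in anti-PD1 and PBS were small. PBS members with Ccl1 were 5 cells with 33119 UMIs, so their Crtam level rests on a few UMIs. Csf2 stood at 356 CPM in fusion, 249 in combination, 74.9 in IL15 superagonist, 38.7 in anti-PD1 and 0 in PBS with Ccl1. Csf2 without Ccl1 stood at 54.5 CPM in fusion, 6.33 in combination, 42.6 in IL15 superagonist, 0 in anti-PD1 and 13.0 in PBS, lower in 4 libraries and not in PBS, where the gene rests on 2 UMIs. Median UMIs were 5728 in fusion, 8391 in combination, 7724 in IL15 superagonist, 7029 in anti-PD1 and 6577 in PBS members with Ccl1, against 6289.5 in fusion, 6850 in combination, 6727 in IL15 superagonist, 6996 in anti-PD1 and 5298 in PBS members without it, so that all but the fusion members with Ccl1 were deeper; the part of depth was not tested.

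Members with an Xcl1 UMI carried more Srm and less Ccl5 than members chosen on Ifng or Ccl1 without it. Srm stood at 80.1 CPM in fusion, 171 in combination, 135 in IL15 superagonist, 217 in anti-PD1 and 214 in PBS with Xcl1. Srm without Xcl1 stood at 35.0 CPM in fusion, 32.7 in combination, 35.2 in IL15 superagonist, 74.3 in anti-PD1 and 35.5 in PBS. Members without Xcl1 numbered 20 in fusion, 44 in combination, 13 in IL15 superagonist, 23 in anti-PD1 and 14 in PBS. They held 114222 UMIs in fusion, 85176 in IL15 superagonist and 84577 in PBS, where these Srm levels rest on a few UMIs each. Ccl5 stood at 1908 CPM in fusion, 5743 in combination, 5579.9 in IL15 superagonist, 2138 in anti-PD1 and 3674 in PBS with Xcl1. Ccl5 without Xcl1 stood at 7704 CPM in fusion, 12567 in combination, 12515 in IL15 superagonist, 7252 in anti-PD1 and 9364 in PBS, higher in each library. Median UMIs were 6338 in fusion, 7156 in combination, 7318 in IL15 superagonist, 6912 in anti-PD1 and 6260 in PBS members with Xcl1, against 5705 in fusion, 8368 in combination, 5628 in IL15 superagonist, 8540 in anti-PD1 and 4990 in PBS members without it.

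The levels of Ccl3 and Crtam followed the number of selecting UMIs in combination cells. Ccl3 stood at 93.6 CPM in cells with no UMI of the 3 genes, 199.8 with 1 or 2, 883 with 3 to 9 and 2310.4 with 10 or more. Crtam stood at 22.5 CPM in cells with no UMI of the 3 genes, 36.4 with 1 or 2, 73.5 with 3 to 9 and 301 with 10 or more. Secreting cells were also the deeper cells, with medians of 7441 UMIs in combination secreting cells and 4689 in combination cytokine-low cells, and the part of depth in these levels was not tested.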
